A study of Mus musculus with 4 samples.

Results

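The hsa-miR-590-3p library was compared gene by gene with each of its control libraries, cel-miR-67 and mock, and the controls were kept separate throughout. All 3 libraries, of the 4 in the series, came from cardiomyocytes of CD1 mice taken at postnatal day 1, a stage at which heart muscle cells of the mouse still retain some capacity to divide. Cells received the microRNA mimic hsa-miR-590-3p at 50 nM, a control mimic of the worm microRNA cel-miR-67 at 50 nM, or transfection reagent alone (mock), by reverse transfection with Lipofectamine RNAiMAX. RNA was collected 72 h later. The remaining library, from cells given 50 nM of the mimic hsa-miR-199a-3p, entered the scaling and the level filter and is set beside some values. Members were chosen by label alone: the library labelled hsa-miR-590-3p and the libraries of both controls. Because each condition was 1 library, none of the differences below has a replicate check, no test was made, and effects of the mimic, of the dish and of the library preparation cannot be told apart.

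MicroRNAs are short RNAs that guide Argonaute proteins to partly complementary sites, mostly in the 3′ untranslated regions of messenger RNAs, where they lower translation and RNA stability. A mimic is a synthetic duplex that supplies the mature strand in excess of what the cell makes. Direct targets therefore lose RNA, and the levels of many other transcripts follow indirectly. The study that produced these libraries examined hsa-miR-590-3p for its effect on cardiomyocyte proliferation, so genes of the division cycle and of the sarcomere serve here as a scale for the other gene groups. The cel-miR-67 duplex has no close mammalian counterpart and is used as a control for the transfection of a small RNA.

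The libraries held 34452240 reads under hsa-miR-590-3p, 34255689 under cel-miR-67 and 31638930 in mock, assigned to RefSeq records and summed here per gene symbol. Of 27207 symbols, 13484 had a mean of at least 1 CPM, the count scaled by library size and composition, over the 4 libraries. A count of 0 allows up to 0.0849 CPM under hsa-miR-590-3p, 0.0897 CPM under cel-miR-67 and 0.0987 CPM in mock, with 3 reads as the limit. All ratios below are given first to cel-miR-67 and then to mock, on a log2 scale unless a plain ratio is stated. Intervals of ratios are exact 95% binomial intervals and take in counting error alone. PCR copies could not be told from separate molecules, as the reads carried no molecular identifiers. All 10 cardiomyocyte markers were measured, as the label of the cells requires, and fibroblast, endothelial, smooth muscle and epicardial markers were measured too. Of the macrophage markers 4 of 10 passed the level filter and of the erythroid markers 0 of 8. A gene with fewer than 50% of its reads placed uniquely is uncertain, because its reads may belong to other records. These can be records of the same symbol, which were summed, or of another gene, and the sources used here do not tell which. Among the genes named below this holds for Shd, Xrcc4, Ccnb1, Uhrf1, Dnmt1, Ezh2, Suz12, Kat2b, Tnnt2, Rpl5, Pparg, Cd36, Cdkn1a, Eif1, Fgf12, Fzd6, Per1, Tef and Timp1. It also holds for Serpinh1, Serpina3i and Serpina3f.

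Most genes lay close to both controls. The median log2 ratio over all genes was -0.00064 to cel-miR-67 and -0.0057 to mock. Their robust SD was 0.27 and 0.25 log2 units, and between cel-miR-67 and mock it was 0.22. In all, 4799 genes (35.6%) lay above both controls, 4927 (36.5%) lay below both, and 3758 lay between them. The shifts were small: 2398 of the genes above both and 2594 of those below both were within 1.1-fold of the nearer control. A difference of at least 1.5-fold from both controls was found for 359 genes on the higher side (2.66% of genes) and 184 on the lower side (1.36%). At least 2-fold was reached by 47 genes on the higher side (0.349%) and 31 on the lower side (0.23%), and beyond 3-fold there were 2 genes on each side. Of the 2-fold genes 60.3% were thus on the higher side, and 73.3% under scaling by total reads or 72.6% with the deposited RPKM, while at 1.5-fold the shares were 66.1%, 80.9% and 82.1%. Between the controls alone, where a single ratio decides, cel-miR-67 passed 2-fold over mock for 87 genes (0.645%) and was below it by that much for 179 (1.33%). At 1.5-fold the same shares were 2.79% and 4.15%. Against cel-miR-67 alone hsa-miR-590-3p passed 2-fold for 1.65% of genes on the higher side and 0.667% on the lower side, and against mock alone for 1.13% and 0.682%.

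**Figure D1:**
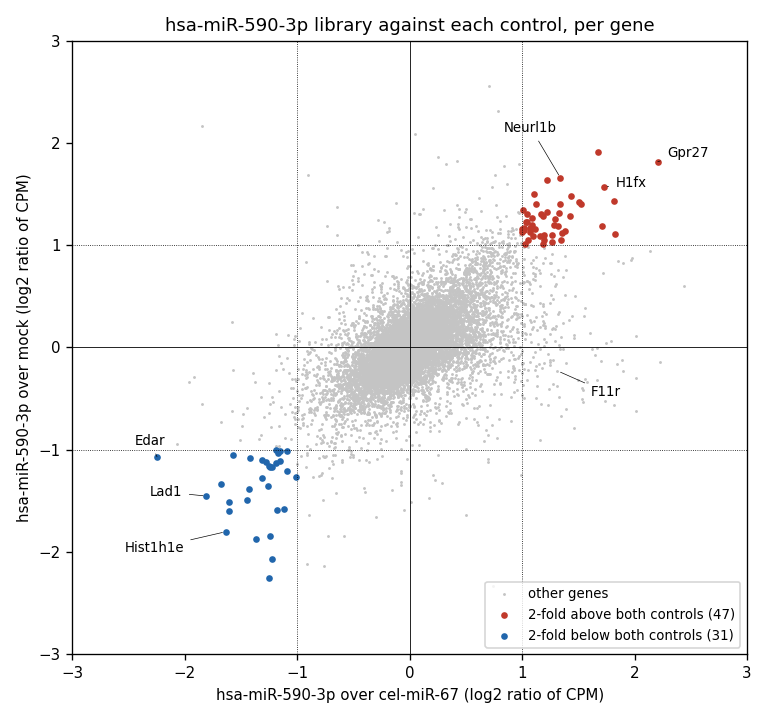
Each point is 1 of 13484 genes, with its log2 ratio of CPM under hsa-miR-590-3p over cel-miR-67 on the x axis and over mock on the y axis. Red points mark the 47 genes at least 2-fold above both controls and blue points the 31 genes at least 2-fold below both, while genes such as F11r lie far from cel-miR-67 only.

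The larger differences were in genes of low level. Genes 2-fold higher had a median of 3.03 CPM and those 2-fold lower a median of 3.55 CPM, against 24.8 CPM over all genes. Among the 2410 genes with a mean from 1 to 5 CPM, 30 passed 2-fold on the higher side (1.24%) and 18 on the lower side (0.747%). The controls, compared by a single ratio, also differed 2-fold from each other more often at low level. They did so for 5.73% of these genes and for 0.819% of genes from 20 to 100 CPM. Among the 2076 genes at 100 CPM or more, 0 were 2-fold higher and 3 were 2-fold lower, while 9 and 13 passed 1.5-fold. Counting error alone left 10 of the 47 higher genes and 8 of the 31 lower genes with both intervals wholly beyond 2-fold. Among the named ones these were Gpr27, Shd, H1fx, Igfbpl1, Zcchc5, Neurl1b, Esco2, Dtl and Cenpf on the higher side. On the lower side they were Hist1h1e, Cdnf, Lad1, Ccdc63, Tnnt1, Tmx1, Clu and Myl4. Of these, Gpr27, Shd and Hist1h1e passed the level filter only through the libraries in which they were high, as given below. Few reads of Shd were placed uniquely, which its intervals do not cover. The records of the 2-fold lower genes had a median length of 1916 bases, against 2899 bases for the 2-fold higher genes and 2829.5 bases for all genes. Just inside the 2-fold limit lay Phf19, with 1.00 and 1.34, and Clic5, given below as plain ratios. Just outside it lay Kif11, with 1.00 and 1.11, and Ccng1, with -1.51 and -0.91.

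**Figure D2:**
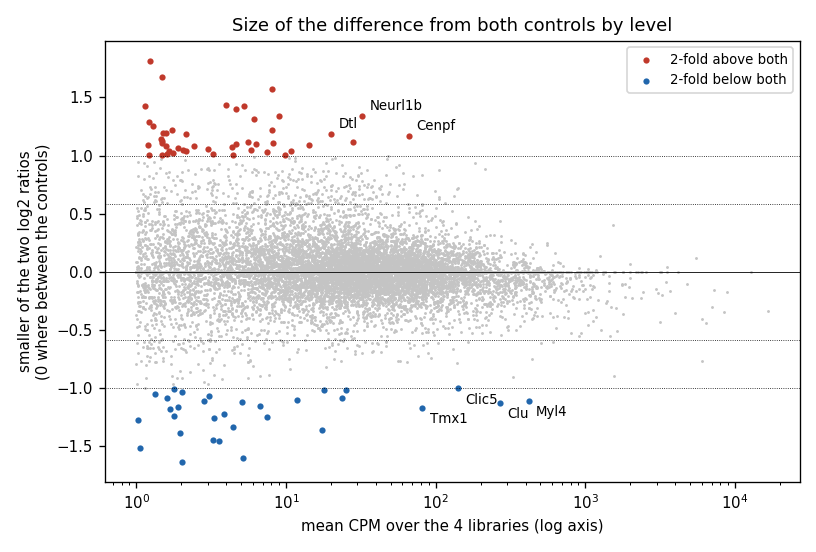
The x axis is the mean CPM of a gene over the 4 libraries on a log axis, and the y axis is the smaller of its log2 ratios to cel-miR-67 and to mock, set to 0 where the gene lay between them. Dotted lines mark 1.5-fold and 2-fold, and the coloured genes beyond 2-fold crowd at the low end, with Cenpf, Tmx1, Clu, Clic5 and Myl4 as exceptions at higher levels.

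Genes far above both controls came from several families. Gpr27 encodes an orphan receptor that couples to G proteins and had 75 reads under hsa-miR-590-3p, against 15 reads under cel-miR-67 and 18 reads in mock, with a ratio of 4.62 (95% interval 2.69 to 8.87) to cel-miR-67 and of 3.52 (2.12 to 6.37) to mock. Both controls were below the 1 CPM of the filter for Gpr27, Shd, Dcaf12l2, Ttbk1 and Pcbd1, which passed it through the mimic libraries and so had to differ from the controls. H1fx, a replication-independent linker histone, had 439 reads under hsa-miR-590-3p, against 125 reads under cel-miR-67 and 127 reads in mock, with a ratio of 3.31 (95% interval 2.72 to 4.09) to cel-miR-67 and of 2.96 (2.43 to 3.65) to mock. Neurl1b, a ubiquitin ligase that promotes endocytosis of Notch ligands, had 1484 reads under hsa-miR-590-3p, against 554 reads under cel-miR-67 and 404 reads in mock, with a ratio of 2.53 (95% interval 2.30 to 2.80) to cel-miR-67 and of 3.16 (2.83 to 3.53) to mock. For both genes the controls lay nearer to each other than to the hsa-miR-590-3p library. Igfbpl1, a secreted relative of the insulin-like growth factor binding proteins, had 6.73 CPM under hsa-miR-590-3p, against 2.48 CPM under cel-miR-67 and 2.40 CPM in mock. Zcchc5, a gene derived from a retrotransposon Gag sequence, had 6.90 CPM under hsa-miR-590-3p, against 2.42 CPM under cel-miR-67 and 2.57 CPM in mock. The X-linked Dcaf12l2, a putative substrate receptor of cullin-based ubiquitin ligases, had 2.15 CPM under hsa-miR-590-3p, against 0.598 CPM under cel-miR-67 and 0.79 CPM in mock. These 3 genes were named through the 2-fold rule, so the hsa-miR-590-3p library had to be at least 2-fold above either control.

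Enzymes that act on chromosomes and on tubulin were also among the 15 highest. Esco2, the acetyltransferase that establishes sister chromatid cohesion, had 13.6 CPM under hsa-miR-590-3p, against 5.38 CPM under cel-miR-67 and 5.13 CPM in mock. Neil3, a DNA glycosylase of proliferating cells, had 8.35 CPM under hsa-miR-590-3p, against 3.32 CPM under cel-miR-67 and 3.36 CPM in mock. Dtl, the receptor by which a cullin ligase marks Cdt1 and p21 for destruction, had 28.9 CPM under hsa-miR-590-3p, against 11.6 CPM under cel-miR-67 and 12.7 CPM in mock. Their log2 ratios lay between 1.19 and 1.41. Agbl2, a carboxypeptidase that trims tubulin tails, had log2 ratios of 1.19 and 1.28. Ttbk1, a kinase of tau and tubulin, had 1.29 and 1.20, and Pcbd1, a dehydratase of tetrahydrobiopterin recycling, had 1.38 and 1.14. These last 3 genes had fewer than 100 reads under hsa-miR-590-3p. Shd, an adaptor with an SH2 domain, had 1.68 and 1.91, but 4.17% of its reads were placed uniquely, so its value is uncertain.

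Genes averaging 50 CPM or more gave values with less counting error. The 10 highest of these were Cenpf, Top2a, Arhgap11a, Bub1b, Mki67, Ccna2, Ccnb1, Hmgb2, Uhrf1 and Smc2, all of them known from the division cycle or from the chromatin of dividing cells. Their plain ratios were between 1.69 (Smc2 to cel-miR-67) and 3.61 (Ccnb1 to cel-miR-67). Ccnb1, which encodes cyclin B1, had 83.3 CPM under hsa-miR-590-3p, against 23.1 CPM under cel-miR-67 and 46.3 CPM in mock, with 28.4% of its reads placed uniquely. The controls differed 2-fold from each other for Ccnb1, and the 3.61-fold ratio is the one to cel-miR-67. In contrast, Top2a, the topoisomerase that untangles DNA before division, had 263 CPM under hsa-miR-590-3p, against 137 CPM under cel-miR-67 and 125 CPM in mock, with the controls close together.

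The lowest genes again had few reads in many cases. Hist1h1e, a replication-dependent linker histone, had 34 reads under hsa-miR-590-3p, against 101 reads under cel-miR-67 and 103 reads in mock, with a ratio of 0.322 (95% interval 0.209 to 0.474) to cel-miR-67 and of 0.287 (0.187 to 0.422) to mock. Cdnf, a neurotrophic factor held in the endoplasmic reticulum, had 81 reads under hsa-miR-590-3p, against 235 reads under cel-miR-67 and 212 reads in mock, with a ratio of 0.328 (95% interval 0.25 to 0.422) to cel-miR-67 and of 0.33 (0.251 to 0.426) to mock. Lad1, the anchoring filament protein ladinin, had 60 reads under hsa-miR-590-3p, against 200 reads under cel-miR-67 and 142 reads in mock, with a ratio of 0.286 (95% interval 0.209 to 0.381) to cel-miR-67 and of 0.365 (0.264 to 0.495) to mock. In all 3 the controls lay nearer to each other than to the hsa-miR-590-3p library. Angptl4, a secreted inhibitor of lipoprotein lipase and a PPAR target, had 18 reads under hsa-miR-590-3p, against 53 reads under cel-miR-67 and 45 reads in mock. Both mimic libraries were below the 1 CPM of the filter for Hist1h1e and Angptl4. These genes passed it through the controls and so had to differ from them. Tnfrsf11b, the decoy receptor osteoprotegerin, had 68 reads under hsa-miR-590-3p, against 155 reads under cel-miR-67 and 150 reads in mock. Tnnt1, troponin T of slow skeletal muscle, had 285 reads under hsa-miR-590-3p, against 695 reads under cel-miR-67 and 898 reads in mock. Further genes past 2-fold were Ccdc63, Anxa8, Gda, Slc17a9, Hist1h1d and Xrcc4. Of Xrcc4 reads only 3.91% were placed uniquely, so its value is uncertain.

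Several genes with many reads were low as well. Clu, the secreted chaperone clusterin, had 177 CPM under hsa-miR-590-3p, against 403 CPM under cel-miR-67 and 386 CPM in mock, with a ratio of 0.439 (95% interval 0.426 to 0.452) to cel-miR-67 and of 0.458 (0.444 to 0.472) to mock. Tmx1, a thioredoxin-like protein of the endoplasmic reticulum membrane, had 43.0 CPM under hsa-miR-590-3p, against 102 CPM under cel-miR-67 and 96.9 CPM in mock, with a ratio of 0.423 (95% interval 0.398 to 0.449) to cel-miR-67 and of 0.443 (0.417 to 0.472) to mock. Clic5, a chloride intracellular channel protein that links membranes to the actin cytoskeleton, had 89.3 CPM under hsa-miR-590-3p, against 203 CPM under cel-miR-67 and 179 CPM in mock, with a ratio of 0.439 (95% interval 0.421 to 0.458) to cel-miR-67 and of 0.499 (0.477 to 0.521) to mock. For these genes the controls lay near each other and well above the hsa-miR-590-3p library. The hsa-miR-199a-3p library had 109 CPM of Clu, 84.2 CPM of Tmx1 and 95.5 CPM of Clic5. Ccng1, which encodes cyclin G1 and is a target of p53, had 184 CPM under hsa-miR-590-3p, against 525 CPM under cel-miR-67 and 346 CPM in mock, and here mock lay well below cel-miR-67. Ppp1r3a, the subunit that brings protein phosphatase 1 to glycogen, had 40.8 CPM under hsa-miR-590-3p, against 70.0 CPM under cel-miR-67 and 95.7 CPM in mock, and here mock lay above cel-miR-67. Among contractile and hormone genes, Myl4, the atrial essential light chain, had 272 CPM under hsa-miR-590-3p, against 606 CPM under cel-miR-67 and 587 CPM in mock, and Nppa, the precursor of atrial natriuretic peptide, had 1076 CPM under hsa-miR-590-3p, against 2232 CPM under cel-miR-67 and 2006 CPM in mock. Kat2b, Tnnt2 and Rpl5 completed the 10 lowest, with 5.25%, 0.00182% and 0.052% of reads placed uniquely. Kat2b had 2 records and Tnnt2 had 10, which were summed, while Rpl5 had 1. Rpl5 belongs to a family with many processed pseudogenes, and its value is uncertain.

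**Figure D3:**
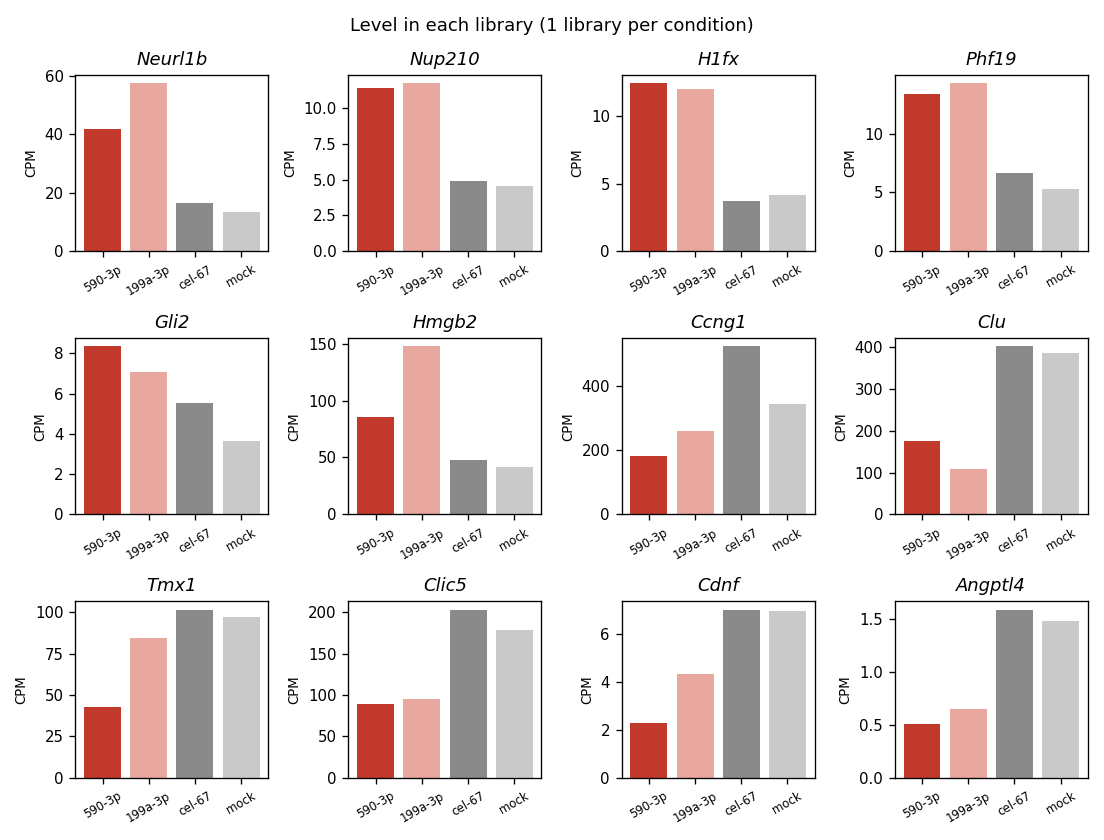
Bars give the CPM of 12 genes in each library, in the order hsa-miR-590-3p, hsa-miR-199a-3p, cel-miR-67 and mock, with 1 library per bar and each y axis starting at 0. Neurl1b, Nup210, H1fx, Phf19, Gli2 and Hmgb2 are higher under hsa-miR-590-3p than in either control, and Ccng1, Clu, Tmx1, Clic5, Cdnf and Angptl4 are lower.

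Promoter sequences were taken from RefSeq (GRCm38.p6) as windows from 250 bases before to 50 bases after the start of each gene, and they matched 28 of the 47 2-fold higher genes, 265 of the 359 1.5-fold higher genes and 120 of the 184 1.5-fold lower genes. The E2F-type motifs TTTGGCGC, TTTCCCGC and TTTCGCGC, searched on both strands, were in 4 of the 28 windows of 2-fold higher genes (14.3%), in 1 of the 19 of 2-fold lower genes (5.26%), in 28 of the 265 of 1.5-fold higher genes (10.6%), in 3 of 120 of 1.5-fold lower genes (2.5%) and in 369 of 10117 of all measured genes (3.65%). TTTGAA, the letters of the cell cycle homology element, was in 27.5% of the 1.5-fold higher, 14.2% of the 1.5-fold lower and 11.6% of all measured windows. CCAAT was in 51.3%, 39.2% and 38.9% of the same windows. The smaller 2-fold sets had another order: CCAAT was in 7 of the 28 higher and 7 of the 19 lower windows, and TTTGAA in 6 of the 28 and 5 of the 19. Over all 27025 windows of that length, an E2F-type motif was in 1.91%, TTTGAA in 18.1% and CCAAT in 37.9%. A match describes letters and shows no binding. Printed here are the windows of the 4 2-fold higher genes that held an E2F-type motif, written on the strand of the gene, with the motif in capitals on whichever strand it was found, because they show where the motif stands in genes with chromatin, pore and replication roles. Dtl is described above, Phf19 and Nup210 below, and E2f2 encodes an E2F factor of replication control. The windows are chr1:191575495-191575794 on the minus strand for Dtl, chr2:34913927-34914226 on the minus strand for Phf19, chr6:91116777-91117076 on the minus strand for Nup210, and chr4:136172024-136172323 on the plus strand for E2f2.
Dtl: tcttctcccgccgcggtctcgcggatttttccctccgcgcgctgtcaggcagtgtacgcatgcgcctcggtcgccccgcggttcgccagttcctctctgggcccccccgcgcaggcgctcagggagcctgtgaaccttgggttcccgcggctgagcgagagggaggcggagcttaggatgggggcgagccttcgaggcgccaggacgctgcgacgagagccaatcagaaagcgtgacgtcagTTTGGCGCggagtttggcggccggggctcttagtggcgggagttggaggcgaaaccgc
Phf19: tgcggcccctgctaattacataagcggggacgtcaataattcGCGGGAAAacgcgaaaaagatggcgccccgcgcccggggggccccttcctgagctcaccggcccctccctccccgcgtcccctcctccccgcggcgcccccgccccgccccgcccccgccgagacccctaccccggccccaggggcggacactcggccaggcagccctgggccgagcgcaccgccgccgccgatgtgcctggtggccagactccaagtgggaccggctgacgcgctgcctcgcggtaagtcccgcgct
Nup210: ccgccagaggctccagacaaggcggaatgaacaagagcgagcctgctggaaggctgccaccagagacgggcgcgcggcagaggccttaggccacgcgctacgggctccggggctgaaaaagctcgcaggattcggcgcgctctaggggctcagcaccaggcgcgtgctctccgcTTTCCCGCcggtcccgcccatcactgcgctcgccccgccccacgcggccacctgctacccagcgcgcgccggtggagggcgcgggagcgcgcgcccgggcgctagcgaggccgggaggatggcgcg
E2f2: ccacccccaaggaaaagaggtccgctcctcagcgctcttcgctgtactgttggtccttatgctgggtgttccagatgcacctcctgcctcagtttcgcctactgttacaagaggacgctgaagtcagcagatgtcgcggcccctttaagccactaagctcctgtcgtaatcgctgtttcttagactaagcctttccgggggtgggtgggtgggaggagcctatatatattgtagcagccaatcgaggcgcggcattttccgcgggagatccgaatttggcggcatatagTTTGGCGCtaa

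Gene lists give the scale and the themes. The mitosis list had 26 of 26 genes above both controls, 17 of them past 1.5-fold against 2.66% of all genes, with median log2 ratios of 0.68 and 0.86. The sarcomere list had 20 of 24 below both controls, with medians of -0.24 and -0.49. In each list below, the counts are to be read against 35.6% of all genes above both controls and 36.5% below both. Scaling by total reads in place of composition moves the median of all genes to 0.071 and 0.090, so a list median nearer to 0 than that can change sign, and each such case is given with its list. Genes named with a list are its extremes or most abundant members, with further members chosen after their values were seen.

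Genes of chromatin and of the nuclear envelope lay more often above both controls than below both. Of the nuclear envelope and transport list, which holds lamins, pore proteins and carriers, 29 of 36 lay above both controls and 2 below both, with median log2 ratios of 0.21 and 0.21. Nup210, an integral glycoprotein of the pore, had 11.4 CPM under hsa-miR-590-3p, against 4.87 CPM under cel-miR-67 and 4.54 CPM in mock, with log2 ratios of 1.22 and 1.32. Lmnb1, a B-type lamin, had 179.5 CPM under hsa-miR-590-3p, against 109.8 CPM under cel-miR-67 and 99.6 CPM in mock. Lmnb2, its relative, had log2 ratios of 0.56 and 0.74. Nup210 and Lmnb1 were the members past 1.5-fold against both controls. High mobility group and histone chaperone genes had 22 of 27 above both and 1 below both, with medians of 0.26 and 0.16. Hmgb2, a DNA-bending protein of dividing cells, had 85.1 CPM under hsa-miR-590-3p, against 47.9 CPM under cel-miR-67 and 41.8 CPM in mock, and the chaperone Asf1b, which hands histones to new DNA, had 29.7 CPM under hsa-miR-590-3p, against 16.8 CPM under cel-miR-67 and 14.5 CPM in mock. Chaf1a, a subunit of chromatin assembly factor 1, had log2 ratios of 0.63 and 0.64. Hmga2, an architectural factor of embryonic tissue, was the member below both controls, with -0.68 and -0.29.

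Polycomb and Trithorax genes, which write and read histone marks of silenced and active genes, had 22 of 31 above both controls and 3 below both, with medians of 0.15 and 0.14. Phf19, which brings Polycomb repressive complex 2 to its sites, had 13.4 CPM under hsa-miR-590-3p, against 6.67 CPM under cel-miR-67 and 5.27 CPM in mock and was the member past 2-fold. Suz12 and Ezh2, core subunits of that complex, had log2 ratios of 0.38 and 0.37 and of 0.40 and 0.51. Eed, another core subunit, had -0.13 and -0.011. Genes of DNA methylation and histone deacetylation had 18 of 30 above both and 6 below both, with medians of 0.053 and 0.12. Uhrf1, which guides maintenance methylation to new DNA, had 92.1 CPM under hsa-miR-590-3p, against 38.7 CPM under cel-miR-67 and 51.9 CPM in mock, with controls that differed, and Dnmt1, the maintenance methyltransferase, had log2 ratios of 0.44 and 0.63. Hdac4, a class IIa deacetylase that restrains Mef2 in muscle, had log2 ratios of 0.60 and 0.36, and Tet1, a methylcytosine dioxygenase, had -0.32 and -0.21. Splicing factors and RNA-binding proteins had 20 of 34 above both and 9 below both, with medians of 0.052 and 0.10. Within that list the muscleblind genes lay on opposite sides, since Mbnl3 had log2 ratios of 0.67 and 0.76 and Mbnl1 had -0.47 and -0.36.

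**Figure D4:**
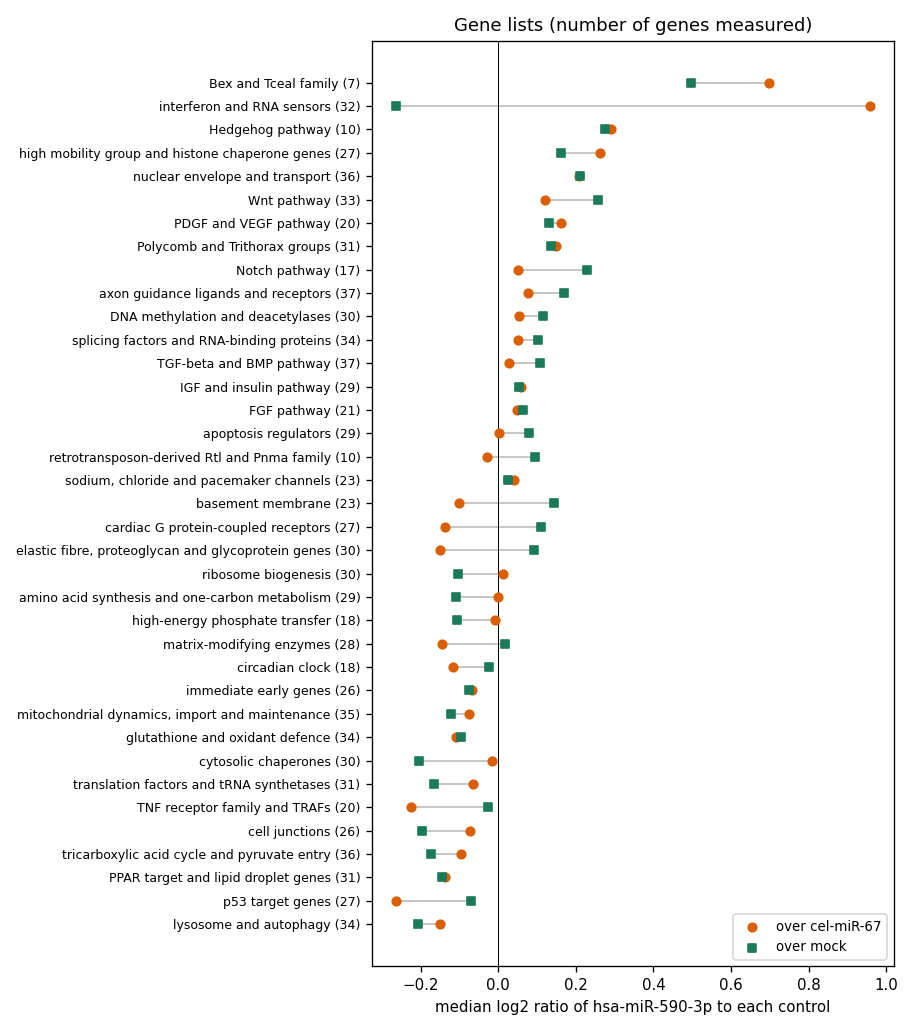
For each of 37 gene lists, the median log2 ratio of hsa-miR-590-3p over cel-miR-67 is a circle and that over mock a square, with the number of measured genes in parentheses. The nuclear envelope, high mobility group, Polycomb, Hedgehog and Wnt lists sit to the right for both controls and the lysosome and tricarboxylic acid lists to the left, while the interferon list has its circle at 0.96 and its square at -0.26.

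Among signalling pathways, Hedgehog had the widest share above both controls. In this pathway Patched holds back Smoothened until a Hedgehog ligand binds, and Gli factors then act on target genes. All 10 measured members, of 13 listed, lay above both controls, with median log2 ratios of 0.29 and 0.27. The count was the same under total-read and median-of-ratios scaling. Total reads raise every ratio and median-of-ratios scaling moves them little, so this adds little to the count. Gli2, the main activating factor, had 8.35 CPM under hsa-miR-590-3p, against 5.53 CPM under cel-miR-67 and 3.65 CPM in mock. Smo, the signal transducer, had 88.2 CPM under hsa-miR-590-3p, against 73.2 CPM under cel-miR-67 and 72.2 CPM in mock. Kif7, the ciliary kinesin that regulates Gli, had 11.4 CPM under hsa-miR-590-3p, against 8.28 CPM under cel-miR-67 and 8.13 CPM in mock. The coreceptors Gas1, Boc and Cdon had log2 ratios of 0.30 and 0.26, of 0.34 and 0.25 and of 0.19 and 0.14. Ptch1, the receptor and a standard readout of pathway output, had 0.024 and 0.17, close to cel-miR-67. Gli2 was the 1 member past 1.5-fold against both controls, and it lay close to that limit for cel-miR-67.

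The Wnt list, in which Frizzled receptors and Dishevelled proteins relay signals to beta-catenin, had 22 of 33 above both controls and 2 below both, with medians of 0.12 and 0.26. Dvl2, a Dishevelled protein, had 27.7 CPM under hsa-miR-590-3p, against 20.7 CPM under cel-miR-67 and 19.4 CPM in mock, and the receptors Fzd7 and Fzd1 had log2 ratios of 0.33 and 0.40 and of 0.29 and 0.37. The ligand Wnt5a had 0.38 and 0.25. None of the 33 members passed 1.5-fold against both controls. Dvl3 stood apart because its controls differed, with 75.1 CPM under hsa-miR-590-3p, against 34.8 CPM under cel-miR-67 and 62.9 CPM in mock. Fzd6 was below both controls, with -0.30 and -0.29. The Notch list had 8 of 17 above both and 4 below both, with medians of 0.051 and 0.23. Nrarp, a feedback inhibitor induced by Notch, had 5.15 CPM under hsa-miR-590-3p, against 2.15 CPM under cel-miR-67 and 2.90 CPM in mock, whereas Hes1, a direct Notch target, had log2 ratios of -0.11 and -0.15 and Heyl had -0.50 and -0.11. Notch outputs were thus on both sides of the controls.

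TGF-beta and BMP genes had 14 of 37 above both and 7 below both, with medians of 0.027 and 0.11. The ligand Bmp2 had 3.48 CPM under hsa-miR-590-3p, against 1.88 CPM under cel-miR-67 and 1.94 CPM in mock, and Id1, a target of BMP signals, had log2 ratios of 0.46 and 0.34. On the lower side, Ltbp2, a latent TGF-beta binding protein of the matrix, had 28.5 CPM under hsa-miR-590-3p, against 46.0 CPM under cel-miR-67 and 48.6 CPM in mock. FGF genes had 10 of 21 above both and 5 below both, with medians of 0.049 and 0.064. Within it the target Etv4 had 0.33 and 0.36 and the ligand gene Fgf1 had -0.28 and -0.49. Fgf12, an intracellular relative that binds sodium channels, was the member past 1.5-fold, with -0.66 and -1.05, but 14.4% of its reads were placed uniquely. IGF and insulin genes had 14 of 29 above both and 7 below both, with medians of 0.059 and 0.055. Igfbp4 had 0.50 and 0.46 and Igfbp5 had -1.05 and -0.39, so binding proteins of this pathway lay on opposite sides.

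PDGF and VEGF genes had 12 of 20 above both and 4 below both, with medians of 0.16 and 0.13. Vegfc, a lymphatic growth factor, had 16.2 CPM under hsa-miR-590-3p, against 9.18 CPM under cel-miR-67 and 10.6 CPM in mock, and the placental growth factor gene Pgf had 4.24 CPM under hsa-miR-590-3p, against 7.44 CPM under cel-miR-67 and 7.44 CPM in mock. Axon guidance ligands and receptors had 19 of 37 above both and 8 below both, with medians of 0.078 and 0.17. Efnb3, an ephrin ligand, had 17.3 CPM under hsa-miR-590-3p, against 10.9 CPM under cel-miR-67 and 11.4 CPM in mock, and Sema5a, a semaphorin, had 60.2 CPM under hsa-miR-590-3p, against 103 CPM under cel-miR-67 and 81.7 CPM in mock. Of the cardiac G protein-coupled receptors 6 of 27 lay above both and 8 below both, with medians of -0.14 and 0.11, and under total reads 10 lay above both and 6 below both. Adrb1, the main beta-adrenergic receptor of heart muscle, had 30.5 CPM under hsa-miR-590-3p, against 47.0 CPM under cel-miR-67 and 47.7 CPM in mock, the member past 1.5-fold on the lower side. Receptors of the TNF family and their adaptors had 5 of 20 above both and 10 below both, with medians of -0.22 and -0.027, of which the one to mock changes sign, to 0.068, under scaling by total reads, where 8 lay above both and 7 below both. The ectodysplasin receptor Edar had 33 reads under hsa-miR-590-3p, against 150 reads under cel-miR-67 and 60 reads in mock, and its controls differed by more than 2-fold.

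The 3 matrix lists showed no common direction against both controls. Basement membrane genes had 5 of 23 above both and 3 below both, with medians of -0.10 and 0.15. Matrix-modifying enzymes had 6 of 28 above both and 10 below both, with medians of -0.14 and 0.018, and under total reads 8 lay above both and 7 below both. Elastic fibre, proteoglycan and glycoprotein genes had 10 of 30 above both and 11 below both, with medians of -0.15 and 0.093, and under total reads 10 lay above both and 9 below both. In all 3 lists the median was below 0 to cel-miR-67 and above 0 to mock, and that of cel-miR-67 over mock was 0.20, 0.24 and 0.22. Single genes stood out, such as Fmod, a collagen-binding proteoglycan, with 44.4 CPM under hsa-miR-590-3p, against 29.2 CPM under cel-miR-67 and 20.1 CPM in mock, and Timp1, an inhibitor of metalloproteinases, with 61.5 CPM under hsa-miR-590-3p, against 88.2 CPM under cel-miR-67 and 127 CPM in mock. Cell junction genes had 6 of 26 above both and 12 below both, with medians of -0.072 and -0.20. The intercalated disc genes Gja1, Cdh2 and Pkp2 were all below both controls: Gja1, the main gap junction protein of the ventricle, had 928 CPM under hsa-miR-590-3p, against 1186 CPM under cel-miR-67 and 1328 CPM in mock. Cdh2, N-cadherin, had log2 ratios of -0.50 and -0.34, and Pkp2, a desmosomal plakophilin, had -0.38 and -0.38.

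**Figure D5:**
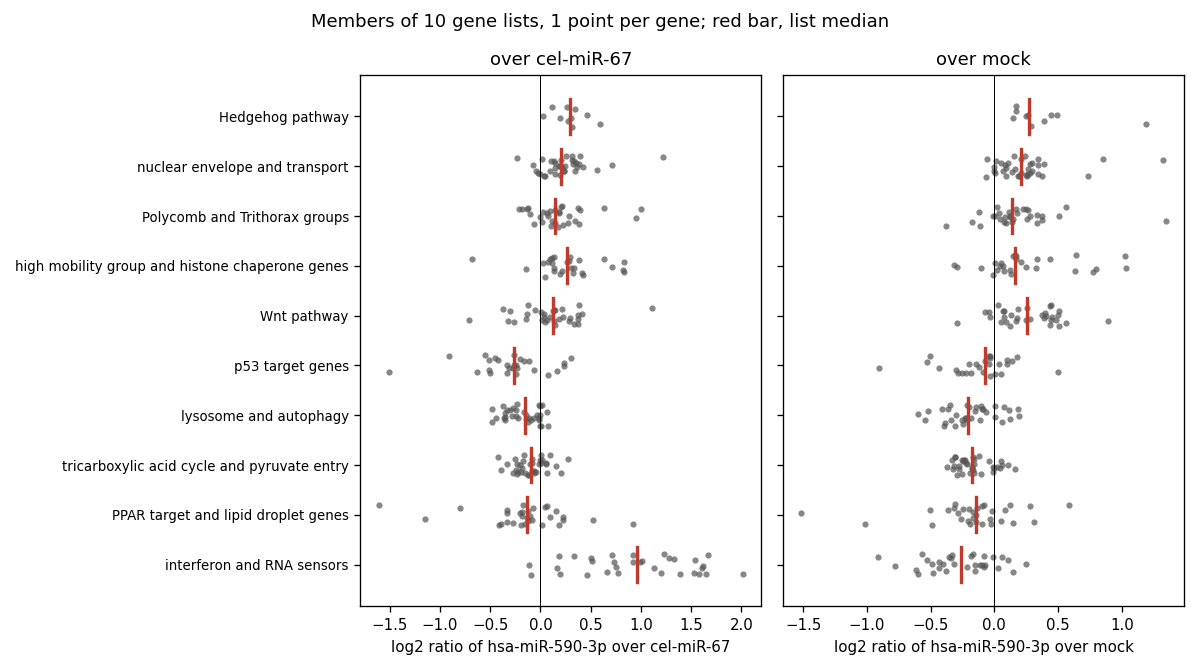
Each point is a measured gene of 1 of 10 lists, with its log2 ratio of hsa-miR-590-3p over cel-miR-67 on the left and over mock on the right, and red bars give list medians. The 10 Hedgehog genes are all to the right of 0 in both panels, the lysosome genes are mostly to the left, and most interferon genes are to the right of 0 over cel-miR-67 and to the left of 0 over mock.

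Genes of energy metabolism lay more often below both controls than above both, by small amounts, although for some lists this depends on the scaling, as given with each. The tricarboxylic acid cycle and pyruvate entry list had 24 of 36 below both and 4 above both, with medians of -0.097 and -0.17. Pdk2, a kinase that inhibits pyruvate dehydrogenase, had 91.0 CPM under hsa-miR-590-3p, against 122 CPM under cel-miR-67 and 111 CPM in mock. None of the 36 members passed 1.5-fold. PPAR target and lipid droplet genes had 19 of 31 below both and 5 above both, with medians of -0.14 and -0.14. Angptl4, described above, and Pparg were past 2-fold, and Pparg, the regulator of fat cell formation, had 43 reads under hsa-miR-590-3p, against 91 reads under cel-miR-67 and 75 reads in mock. Pdk4, a PPAR target that spares glucose, had 24.5 CPM under hsa-miR-590-3p, against 42.8 CPM under cel-miR-67 and 34.8 CPM in mock. On the higher side were Cd36, the fatty acid transporter, with log2 ratios of 0.52 and 0.28, and Cpt1a, which admits fatty acids to mitochondria, with 0.16 and 0.15.

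Glutathione and oxidant defence genes had 22 of 34 below both and 6 above both, with medians of -0.11 and -0.097. Sod2, the mitochondrial superoxide dismutase, had log2 ratios of -0.35 and -0.49, and Prdx3, a mitochondrial peroxiredoxin, had log2 ratios of -0.41 and -0.43. Under scaling by total reads 14 of these 34 genes were below both and 13 above both, so the count depends on the scaling. Mitochondrial dynamics, import and maintenance genes had 22 of 35 below both and 6 above both, with medians of -0.076 and -0.12, and under total reads 13 below both and 11 above both. Vdac2, a channel of the outer membrane, had -0.23 and -0.38, and Timm50, a subunit of the inner membrane import channel, had 0.28 and 0.21. High-energy phosphate genes had 8 of 18 below both and 5 above both, with medians of -0.0083 and -0.11, the first of which is 0.063 under total reads, where 6 lay below both and 9 above both. Prkaa2, a catalytic subunit of AMP-activated kinase, had 163 CPM under hsa-miR-590-3p, against 206 CPM under cel-miR-67 and 221 CPM in mock. Genes of amino acid synthesis and one-carbon metabolism had 13 of 29 below both and 9 above both, with medians of 0.00044 and -0.11, the first of which is -0.0022 under median-of-ratios scaling and 0.072 under total reads. Under total reads 8 of these genes lay below both and 11 above both. Got2, the mitochondrial aspartate aminotransferase, had log2 ratios of -0.51 and -0.40.

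Lysosome and translation genes were also more often below both controls than above both, also under scaling by total reads, whereas chaperone and ribosome biogenesis genes were so only without it. Lysosome and autophagy genes had 25 of 34 below both and 3 above both, with medians of -0.15 and -0.21, and 19 of 34 stayed below both under scaling by total reads. Ctsd and Ctsb, lysosomal proteases, had 496 CPM under hsa-miR-590-3p, against 691 CPM under cel-miR-67 and 709.8 CPM in mock and 353 CPM under hsa-miR-590-3p, against 456 CPM under cel-miR-67 and 514 CPM in mock. Becn1, a subunit of the kinase complex that starts autophagosomes, had log2 ratios of -0.48 and -0.39, and Bnip3, a mitophagy receptor, had -0.44 and -0.60. Translation factors and tRNA synthetases had 21 of 31 below both and 2 above both, with medians of -0.065 and -0.17, the first of which is 0.0064 under total reads. Eif1, which monitors start codon choice, had log2 ratios of -0.40 and -0.48. Cytosolic chaperones had 15 of 30 below both and 5 above both, with medians of -0.017 and -0.20, the first of which is 0.054 under total reads, where 9 lay below both and 9 above both. Hspb7, a small heat shock protein of heart muscle, had 953 CPM under hsa-miR-590-3p, against 1251 CPM under cel-miR-67 and 1568 CPM in mock, and Cryab, another small heat shock protein of muscle, had log2 ratios of -0.36 and -0.43. Ribosome biogenesis genes had 13 of 30 below both and 3 above both, with medians of 0.013 and -0.10, and under total reads 7 lay below both and 11 above both. Apoptosis regulators differed from these lists in direction and had 13 of 29 above both and 6 below both, with medians of 0.002 and 0.08, the first of which is -0.00065 under median-of-ratios scaling.

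Of 27 p53 target genes, 17 lay below both controls and 3 above both, with medians of -0.26 and -0.07, and under total reads 10 lay below both, 4 above both, and the median to mock is 0.025. Cdkn1a, the cell cycle inhibitor p21, had 124 CPM under hsa-miR-590-3p, against 233 CPM under cel-miR-67 and 179 CPM in mock. Ccng1, given above, was the member past 1.5-fold. The controls were unequal here as well, since cel-miR-67 over mock had a list median of 0.23. Immediate early genes had 14 of 26 below both and 8 above both, with medians of -0.067 and -0.076, which are 0.0047 and 0.019 under total reads, where 8 lay below both and 11 above both. Atf3, a stress-induced factor, had 15.2 CPM under hsa-miR-590-3p, against 23.8 CPM under cel-miR-67 and 28.1 CPM in mock. Circadian clock genes had 8 of 18 below both and 6 above both, with medians of -0.12 and -0.024, the second of which is 0.071 under total reads, where 7 lay below both and 7 above both. The PAR-domain factors Hlf and Tef, outputs of the clock, had log2 ratios of -0.68 and -0.30 and of -0.57 and -0.38, and Per1, a core repressor, had 0.29 and 0.44.

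Sodium, chloride and pacemaker channel genes had 11 of 23 above both and 7 below both, with medians of 0.041 and 0.025. Clic5, given above, was among the members past 1.5-fold on the lower side. Clic4, a relative of Clic5, had 592 CPM under hsa-miR-590-3p, against 786 CPM under cel-miR-67 and 774 CPM in mock. The Bex and Tceal family and the Rtl and Pnma family were listed because they hold some of the genes highest above both controls. Their counts are therefore not independent of that choice. Of the Bex and Tceal family, small X-linked proteins of nerve and muscle, 6 of 7 measured genes were above both controls, with medians of 0.70 and 0.50. Only these 7 of 11 listed genes passed the level filter. Bex2 had 91 reads under hsa-miR-590-3p, against 24 reads under cel-miR-67 and 36 reads in mock. Bex1 had log2 ratios of 0.94 and 0.50. Family members share sequence, and 56.7% of Bex2 reads were placed uniquely. The retrotransposon-derived Rtl and Pnma family had 4 of 10 above both and 3 below both, with medians of -0.028 and 0.095, the first of which is 0.043 under total reads. Zcchc5, given above, and Pnmal2, with log2 ratios of 0.89 and 0.85, were its members past 1.5-fold.

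Genes of the interferon response and of RNA sensing, which cells can induce on entry of foreign RNA, separated the controls from each other. Of 32 genes, 27 lay between the controls, 4 above both and 1 below both. The median log2 ratio of hsa-miR-590-3p was 0.96 to cel-miR-67 and -0.26 to mock, and that of cel-miR-67 to mock was -1.34. Usp18, a protease that removes ISG15 from proteins, had 64.0 CPM under hsa-miR-590-3p, against 40.4 CPM under cel-miR-67 and 121 CPM in mock. Bst2, the antiviral membrane protein tetherin, had 156 CPM under hsa-miR-590-3p, against 77.1 CPM under cel-miR-67 and 180.1 CPM in mock. Ifi44, an interferon-induced cytosolic protein, had 30.1 CPM under hsa-miR-590-3p, against 12.8 CPM under cel-miR-67 and 44.6 CPM in mock. The cel-miR-67 library was the lowest of the 3 for each of these genes, so a comparison with that control alone gives a different account of this group than one with mock.

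Markers of cell types differed between the libraries as well. The 10 cardiomyocyte markers summed to 33041 CPM under hsa-miR-590-3p, against 44345 CPM under cel-miR-67 and 48902 CPM in mock, and 7 of 10 lay below both controls. In such bulk samples fewer cells of a type and less RNA per cell cannot be told apart. The sarcomere, metabolic, junction and channel genes above include genes of heart muscle cells, and the part of these markers in their values was not tested. Nkx2-5, a defining transcription factor of heart muscle, had 122 CPM under hsa-miR-590-3p, against 111 CPM under cel-miR-67 and 113 CPM in mock. The 10 fibroblast markers summed to 11264 CPM under hsa-miR-590-3p, against 9961 CPM under cel-miR-67 and 10444 CPM in mock, with 4 above both controls, 3 below both and medians of -0.034 and 0.12, the first of which is 0.038 under total reads. Endothelial markers summed to 262 CPM under hsa-miR-590-3p, against 227 CPM under cel-miR-67 and 304 CPM in mock, with 2 of 10 above both and 1 below. The 9 measured smooth muscle and pericyte markers summed to 5598 CPM under hsa-miR-590-3p, against 5781 CPM under cel-miR-67 and 4883 CPM in mock, with 5 above both and 2 below. Epicardial markers summed to 510.1 CPM under hsa-miR-590-3p, against 406 CPM under cel-miR-67 and 534 CPM in mock, with 4 of 10 above both and 0 below. Upk3b, a uroplakin of the mesothelium, had 76.0 CPM under hsa-miR-590-3p, against 42.6 CPM under cel-miR-67 and 59.3 CPM in mock. Hedgehog, matrix and guidance genes are also used by such non-muscle cells, and the part of these markers in them was not tested.

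Blood and nerve markers were scarce. The 4 measured macrophage markers summed to 6.37 CPM under hsa-miR-590-3p, against 8.64 CPM under cel-miR-67 and 17.3 CPM in mock, all 4 of them below both controls. Lyz2, lysozyme, had 92 reads under hsa-miR-590-3p, against 148 reads under cel-miR-67 and 349 reads in mock, and C1qa, a complement subunit of macrophages, had 3 reads under hsa-miR-590-3p, against 3 reads under cel-miR-67 and 29 reads in mock. Mock was the highest of the 3 libraries for both genes. For C1qa the hsa-miR-590-3p and cel-miR-67 libraries had equal reads, no more than the limit set for a count of 0. It therefore shows no difference between them. The 4 measured Schwann and neuronal markers summed to 27.7 CPM under hsa-miR-590-3p, against 34.0 CPM under cel-miR-67 and 32.2 CPM in mock, with 1 above both controls and 1 below, and Sox10, which defines glia of the neural crest, was at 0 reads in all 4 libraries. The erythroid gene Ahsp was at 0 reads in all 4 libraries as well.

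Directly against hsa-miR-199a-3p, a ratio in which no control library enters, the hsa-miR-590-3p library passed 2-fold on the higher side for 364 genes (2.7%) and on the lower side for 252 (1.87%), with a robust SD of 0.39 log2 units. The values of both mimics against the controls share the same control libraries, so their likeness is not given as a result. In 50 genes (0.371%) hsa-miR-590-3p was at least 1.5-fold above each of the other 3 libraries, and in 65 (0.482%) it was at least 1.5-fold below each of them. These genes were chosen after their values were seen. On the higher side, Megf6, a protein with EGF-like repeats, had 44.0 CPM under hsa-miR-590-3p, against 17.3 CPM under hsa-miR-199a-3p, 23.6 CPM under cel-miR-67 and 27.2 CPM in mock. Stc1, the secreted glycoprotein stanniocalcin 1, had 1062 reads under hsa-miR-590-3p, against 496 under hsa-miR-199a-3p, 577 under cel-miR-67 and 387 in mock. Phlpp2, a phosphatase that turns off Akt, had 24.9 CPM under hsa-miR-590-3p, against 14.4 CPM under hsa-miR-199a-3p, 14.1 CPM under cel-miR-67 and 16.4 CPM in mock. By their choice, the hsa-miR-590-3p library was the highest of the 4 in these genes. On the lower side, Tmx1 had 43.0 CPM under hsa-miR-590-3p, against 84.2 CPM under hsa-miR-199a-3p, 102 CPM under cel-miR-67 and 96.9 CPM in mock. Stk39, the kinase SPAK that activates cation-chloride cotransporters, had 56.6 CPM under hsa-miR-590-3p, against 114 CPM under hsa-miR-199a-3p, 109 CPM under cel-miR-67 and 94.5 CPM in mock. Aqp1, a water channel, had 59.0 CPM under hsa-miR-590-3p, against 102 CPM under hsa-miR-199a-3p, 98.6 CPM under cel-miR-67 and 95.6 CPM in mock, and Chfr, a ubiquitin ligase of an early mitotic checkpoint, had 27.9 CPM under hsa-miR-590-3p, against 46.0 CPM under hsa-miR-199a-3p, 53.6 CPM under cel-miR-67 and 44.9 CPM in mock. Gpd1, the glycerol-3-phosphate dehydrogenase of the cytosol, had 14.3 CPM under hsa-miR-590-3p, against 23.7 CPM under hsa-miR-199a-3p, 28.9 CPM under cel-miR-67 and 34.4 CPM in mock. Anxa8, a calcium-dependent membrane-binding protein, had 23 reads under hsa-miR-590-3p, against 102 under hsa-miR-199a-3p, 52 under cel-miR-67 and 72 in mock. By the way these genes were chosen, the hsa-miR-590-3p library was the lowest of the 4 in each.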

How the data were processed

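RNA, with small RNA retained, was sequenced from 1 library per condition. The authors deposited, per RefSeq mRNA record, counts of total and uniquely placed reads and RPKM values (reads per length and depth), per the file headers. CASAVA 1.8 and the build mm8 are named in the submitters' processing notes; the aligner was not given in the sources used here. Total reads of 36065 records were summed to 27207 symbols, of which 6249 had several records, and scaled by TMM in Python 3.11.15 (numpy 2.4.6, pandas 2.3.3, scipy 1.17.1, matplotlib 3.10.9), with factors checked against edgeR 4.0.16 in R 4.3.3. Log2 ratios used a prior count of 0.5. With 0 residual degrees of freedom no test was made. Calls required the same fold against both controls and a mean of at least 1 CPM. The calling step was tested on simulated data.

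The libraries were chosen by label. The 39 gene lists and 8 marker lists, with their genes, were chosen with earlier results of these data known. Named genes were the 15 highest and 15 lowest past 2-fold with at least 50 reads, the 10 highest and 10 lowest at 50 CPM or more, and each list's extremes and most abundant member, leaving out gene models without an approved-style symbol and pseudogenes; others were chosen after their values were seen. Alternatives covered scaling, filter, prior count, unique reads, summing, RPKM, ribosomal RNA and the choice of control.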

Additional observations from a re-analysis of the deposited data

How the results depend on the processing

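No paired analysis was possible because each condition was 1 library. Genes at least 2-fold higher than both controls numbered 47, but 881 with no filter on low counts, 17 with a minimum mean of 5 CPM, 140 with records not summed, 222 with cel-miR-67 alone, 153 with mock alone and 87 with the mean of both controls. Genes at least 2-fold lower numbered 31, and 653, 13, 136, 90, 92 and 67 under the same alternatives, and 17 with RPKM. At 1.5-fold the higher genes numbered 359, and 1657, 229, 679, 909, 716 and 596. The 1.5-fold lower genes numbered 184, and 1160, 86, 489, 491, 420 and 362, with 114 under scaling by total reads and 90 with RPKM. Scaling by total reads raises all ratios, so the higher genes were bound to stay past 2-fold. It kept 47 of the 47 higher and 23 of the 31 lower genes. Uniquely placed reads kept fewer, 36 of the 47 higher and 19 of the 31 lower genes. List members were counted without the mitosis, sarcomere and marker lists. Past 1.5-fold on the higher side they numbered 22, but 64 with cel-miR-67 alone, 47 with mock alone and 52 with records not summed. On the lower side they numbered 13, but 7 with a minimum of 5 CPM, 32, 30 and 22 with cel-miR-67, mock and the mean of controls, and 34 with records not summed. Over all genes 2.66% passed 1.5-fold on the higher side and 1.36% on the lower side. The counts of list members are not read as an excess over those shares. Against hsa-miR-199a-3p, 1827 genes were higher and 1744 lower with no filter, and 105 were lower with a minimum of 5 CPM. Where a count moved, the cause was not tested. A value of a named gene was taken as moved only where it left its interval of counting error. By that rule a prior count of 5 moved 0 of 324 values and scaling by total reads moved 150. Unique reads moved 47 and left 249. The intervals are wide for genes with few reads, so the 0 does not show that their values are insensitive to the prior count. At 2-fold, a prior count of 5 kept 35 of the 47 higher and 26 of the 31 lower genes. Genes of 1 to 5 CPM rest on few reads, and values there are the least precise.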

Other observations

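The serpins, inhibitors of serine proteases, were looked at after their values were seen. Of 19 measured genes with a Serpin symbol, 14 lay below both controls, 2 above both and 3 between, against 36.5% of all genes below both, and 7 were at least 1.5-fold below both, against 1.36% of all genes. Their median log2 ratios were -0.51 to cel-miR-67 and -0.47 to mock. Serpinb9, an inhibitor of granzyme B, had 19.2 CPM under hsa-miR-590-3p, against 47.3 CPM under cel-miR-67 and 30.9 CPM in mock. Serpinb6b had 39.0 CPM under hsa-miR-590-3p, against 69.8 CPM under cel-miR-67 and 58.8 CPM in mock. Serpina3h, annotated as a transcribed pseudogene, had 21.6 CPM under hsa-miR-590-3p, against 44.0 CPM under cel-miR-67 and 33.7 CPM in mock. The 7 genes past 1.5-fold include Serpina3n, Serpina3i, Serpina3f and Serpina3h, so they are not 7 separate measurements. Serpinh1, the collagen chaperone Hsp47, had 1958 CPM under hsa-miR-590-3p, against 1875 CPM under cel-miR-67 and 1731 CPM in mock. Serpina3 genes are near copies of each other, so their counts may share reads: 2.83% of the reads of Serpina3i and 0.481% of those of Serpina3f were placed uniquely, against 99.6% of those of Serpinb9 and 95.6% of those of Serpinb6b. Serpinh1, at 2.78%, is uncertain as well.

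Some genes were far from 1 control and close to the other, and were singled out after their values were seen. F11r, a tight junction protein, had 60.3 CPM under hsa-miR-590-3p, against 24.2 CPM under cel-miR-67 and 70.7 CPM in mock. Pigu, a subunit of the enzyme that attaches membrane anchors, had 30.2 CPM under hsa-miR-590-3p, against 10.2 CPM under cel-miR-67 and 37.4 CPM in mock, and Sae1, a subunit of the SUMO-activating enzyme, had 113 CPM under hsa-miR-590-3p, against 49.5 CPM under cel-miR-67 and 97.1 CPM in mock. In these genes cel-miR-67 was the low library and hsa-miR-590-3p lay near mock. Prelp, a matrix proteoglycan, had 33.9 CPM under hsa-miR-590-3p, against 41.1 CPM under cel-miR-67 and 14.3 CPM in mock, with mock as the low library.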
